A study of Mus musculus with 6 samples.

Results

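The 35 genes described here encode UDP-glucuronosyltransferases (UGTs, Ugt genes) and cytosolic sulfotransferases (SULTs, Sult genes) of mouse liver. They were selected by gene symbol and not by their values, as every symbol of the Ugt1a, Ugt2a, Ugt2b, Ugt3a or Sult families that was present in the count table and was not a pseudogene, which gave 18 Ugt and 17 Sult genes of 20673 genes in all. The livers came from C57BL/6J mice, an inbred wild-type strain, with 3 mice kept on a regular diet (RD) and 3 given a diet rich in cholesterol (HCD) over 3 days. RNA was sequenced from whole liver with no other treatment. The HCD also contained cocoa butter and sodium cholate, so cholesterol, fat and cholate cannot be told apart here. The study used mice of both sexes, and the labels give neither the sex nor the age of any one liver.

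UGTs sit in the membrane of the endoplasmic reticulum and attach glucuronic acid from UDP-glucuronate to bilirubin, bile acids, steroids and drugs. SULTs are cytosolic enzymes that transfer sulfate from the donor PAPS (3′-phosphoadenosine-5′-phosphosulfate) to phenols, steroids and bile acids. Both reactions make lipophilic compounds more soluble for excretion into bile and urine, and the liver is a main site of both. Several Sult genes, including Sult2a genes and Sult3a1, are known for higher expression in female than in male mouse liver.

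The libraries held 13771630 to 23129576 counts. HCD replicate 1 stood apart from the other 5 libraries. It held 5032 counts of Xist, the RNA of the inactive X chromosome, which was at 0 in the others, and 0 counts of the Y-linked genes Ddx3y, Eif2s3y, Kdm5d and Uty, which had 65 to 1229 counts elsewhere. All 12 listed female-biased liver genes were highest in this liver and all 12 listed male-biased genes, the Y-linked genes among them, were lowest. The HCD group thus mixed livers with both patterns while the RD group did not, and log2 fold changes of tested genes are given with and without HCD replicate 1. The summed level of 8 hepatocyte markers was 95300 to 144000 CPM (counts scaled to the library total with TMM normalization factors) in the 6 livers, most of it from Alb, the albumin gene. None of these 8 markers was called by edgeR, with log2 fold changes of -0.69 to 0.77 and a median of -0.25 (-0.11 without HCD replicate 1). At an unadjusted p under 0.05, 2 were higher and 1 lower, against 11.1% and 9.81% of all genes tested, and DESeq2 also called 2 higher and 1 lower, against 7.2% of all genes in either direction. The summed level of 8 Kupffer cell markers was 132 to 226 CPM in RD and 187 to 413 CPM in HCD livers. All 8 Kupffer markers had log2 fold changes above 0, with a median of 0.86 (0.62 without HCD replicate 1). None of them passed the edgeR test, while 4 were higher at an unadjusted p under 0.05 and 3 were called higher by DESeq2. None of the tested markers of sinusoidal endothelial cells (6), stellate cells (7), cholangiocytes (6) or leukocytes (4) passed the edgeR test either, with 0, 1, 0 and 1 at an unadjusted p under 0.05 and 0 called by DESeq2 in each list. In the same order, 5, 7, 5 and 4 of these markers had log2 fold changes above 0. The medians were 0.29, 0.49, 0.62 and 0.39, and 0.11, 0.32, 0.57 and 0.24 without HCD replicate 1. Of 10 listed intestinal and pancreatic markers, 4 were in the table and 2 were tested, with log2 fold changes of -0.42 and 1.91. The first did not pass the test and the other rose, against 1.95% of all genes called higher. This was Fabp2, the intestinal fatty acid binding protein, with a log2 fold change of 1.91 (SE 0.18, edgeR adjusted p = 0.00295), and 2.00 without HCD replicate 1. Of 10 pericentral and 10 periportal hepatocyte genes, genes of the zones near the central and portal veins, edgeR called 0 and 1. At an unadjusted p under 0.05, 1 gene of each list was higher, and DESeq2 called 0 and 1. The periportal gene was Hsd17b13, a lipid droplet protein, with a log2 fold change of 0.79 (SE 0.16, edgeR adjusted p = 0.04) and of 0.70 (adjusted p = 0.058) without HCD replicate 1. The part of these cells in the differences below was not tested, and in whole liver fewer cells of a type and less RNA per cell cannot be told apart.

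Of the 35 genes, 28 were measured, defined as 60 or more counts over the 6 livers, and 23 of these had enough counts for the test between diets. The 7 genes under that minimum were Ugt1a10 with 54 counts in all, Sult3a1 with 32, Ugt1a2 and Sult2a4 with 5 each, and Sult3a2, Sult4a1 and Sult6b1 with 2 each. The measured but untested genes were Sult1e1, which sulfates estrogens, and Sult2a1, Sult2a2, Sult2a3 and Sult2a5. Levels between genes were compared in FPKM, which scales fragments by gene length and library total. The plot of FPKM by gene shows that levels spanned the range from 0 or below 1 FPKM to 687 FPKM as a mean over the livers.

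**Figure D1:**
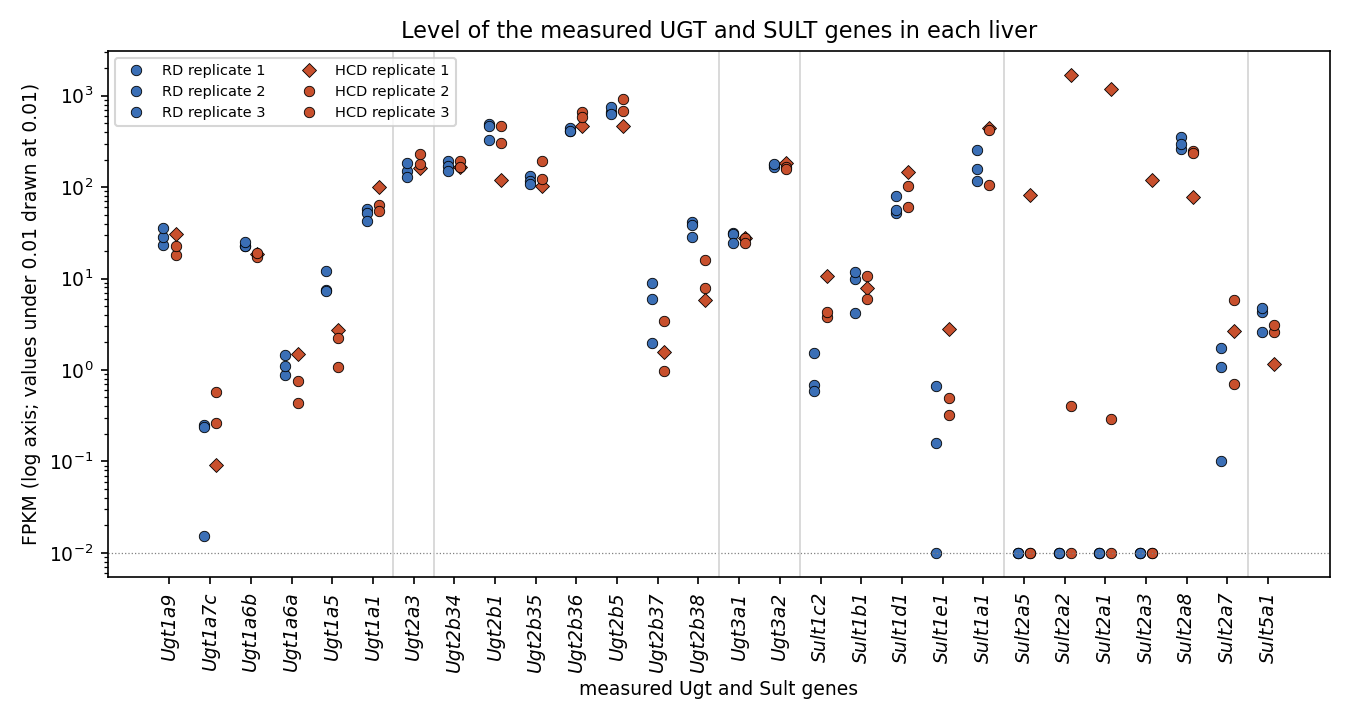
FPKM (log axis) of the 28 measured genes in each of 3 RD (blue) and 3 HCD (red) livers, ordered by subfamily between grey lines, with HCD replicate 1 as a diamond. Sult2a5, Sult2a2, Sult2a1 and Sult2a3 are far above 0 in HCD replicate 1 alone, and most Ugt genes lie at similar levels on both diets.

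Between the diets, 3 of the 23 tested genes passed the threshold. Of these, 1 gene, Sult1c2, rose and 2, Ugt1a5 and Ugt2b38, fell at an adjusted p under 0.05 in edgeR's quasi-likelihood test. Over all 13105 genes tested, 1.95% were called higher and 1.32% lower in the same direction. DESeq2 called 1 member higher and 2 lower, against 7.2% of all genes in either direction. The RD and HCD livers did not overlap for 5 of the 23 members, against 27.6% of all genes tested. Without HCD replicate 1, 2 members were called, both lower, against 2.53% of all genes. The median log2 fold change (HCD relative to RD) stood at -0.10 over 16 Ugt genes and 0.67 over 7 Sult genes, against 0.0074 over all genes tested. Without HCD replicate 1 these medians were -0.13 over the 16 Ugt genes and 0.36 over 7 Sult genes.

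**Figure D2:**
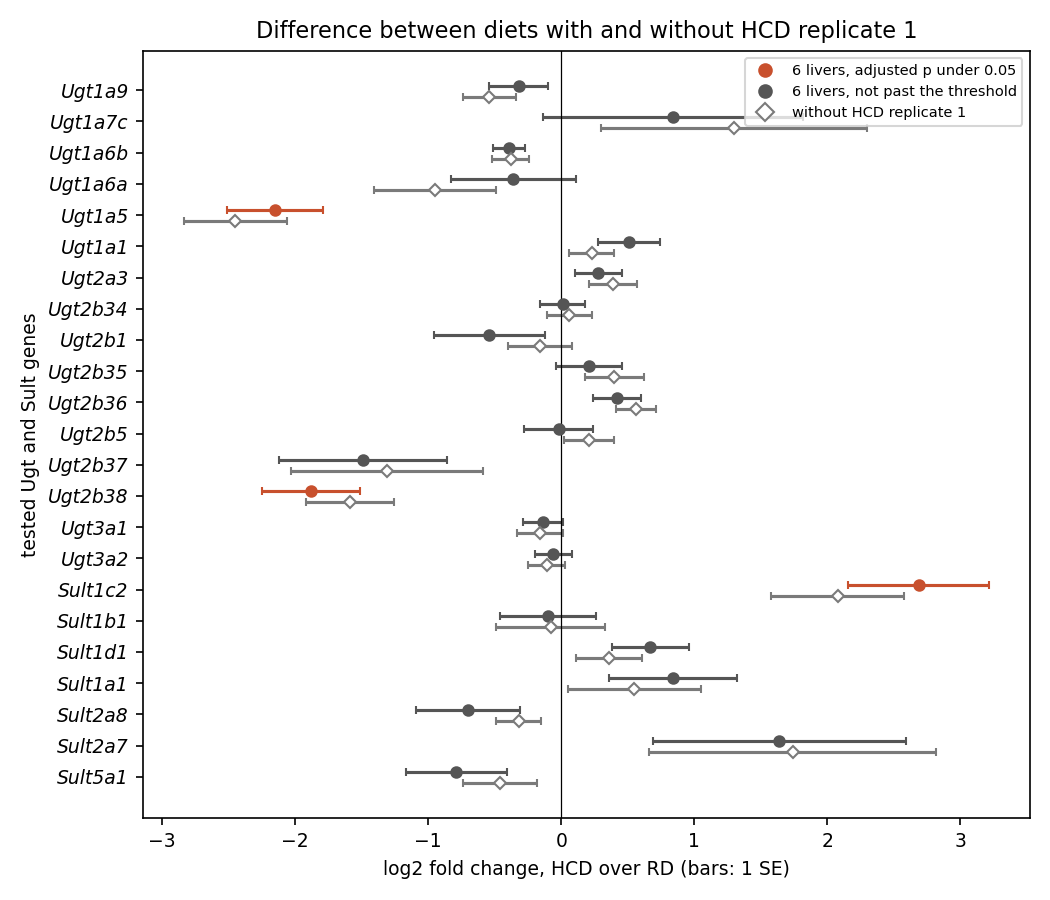
Log2 fold change of HCD over RD with 1 SE for the 23 tested genes, from 6 livers (filled circles, red where the adjusted p was under 0.05) and without HCD replicate 1 (open diamonds). Ugt1a5 and Ugt2b38 lie furthest to the left and Sult1c2 furthest to the right in both fits.

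The Ugt1a genes are read from 1 locus on chromosome 1, each with a first exon of its own and the same last exons, so their enzymes share the domain that binds UDP-glucuronate. In the GENCODE M21 annotation (GRCm38), 17.3% to 49.7% of the exon bases of these genes belonged to 1 gene alone, and their counts are uncertain where reads fell in the shared exons. Ugt1a1, the bilirubin-conjugating enzyme, was the most abundant of the subfamily with a mean of 61.7 FPKM over the 6 livers. It was at 87.6, 79.8 and 63.3 CPM in the RD livers and 147, 97.7 and 82.0 CPM in the HCD livers. HCD replicate 1 was the highest and the diets overlapped, with a log2 fold change of 0.51 (SE 0.23, edgeR adjusted p = 0.25) and of 0.23 without that liver.

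Ugt1a5 (ENSMUSG00000089943, chr1:88166012-88218997, plus strand, GRCm38) fell with HCD. It was at 11.3, 11.2 and 17.9 CPM in the RD livers and 4.04, 1.65 and 3.32 CPM in the HCD livers. Every HCD liver was below every RD liver, and HCD replicate 1 was the highest of its diet. The level fell 4.45-fold, a log2 fold change of -2.15 (SE 0.36, edgeR adjusted p = 0.0237), and -2.45 (adjusted p = 0.0242) without HCD replicate 1. The adjusted p was 0.0662 to 0.0876 without any one RD liver and 0.0743 without HCD replicate 3.

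The other Ugt1a genes did not pass the test. Ugt1a6b, of the Ugt1a6 genes that conjugate small phenols, was at 37.3, 37.5 and 39.8 CPM in RD and 29.1, 28.5 and 30.1 CPM in HCD livers, so the diets did not overlap. Its log2 fold change was -0.39 (SE 0.12, edgeR adjusted p = 0.126) and -0.38 without HCD replicate 1. Ugt1a9 had a log2 fold change of -0.32, Ugt1a6a of -0.36 and Ugt1a7c of 0.84, all with overlapping diets. Without HCD replicate 1 these were -0.54, -0.95 and 1.30. Ugt1a6a and Ugt1a6b had reading frames 98.4% identical. Of their 100-base windows, 97.7% and 69.2% occurred in another gene, so the split of reads between them is uncertain. Ugt1a10, under the count minimum, had 18, 6 and 23 counts in RD livers and 7, 0 and 0 counts in HCD livers.

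The Ugt2b genes, steroid- and drug-conjugating enzymes clustered on chromosome 5, had the highest summed FPKM of the Ugt subfamilies. Their summed level was 71.5% to 83.7% of the summed Ugt FPKM of a liver, against 3.43% to 8.33% for Ugt1a, 5.65% to 9.67% for Ugt2a3 and 6.68% to 11.4% for Ugt3a. The deposited FPKM used full exon lengths, of which 17.3% to 49.7% belonged to 1 gene alone in Ugt1a and 100% in the other Ugt genes. If reads in the shared exons were not counted, the Ugt1a share is too low, which was not tested. Ugt2b5 was the most abundant with a mean of 687 FPKM, followed by Ugt2b36 with 497 and Ugt2b1 with 363. Ugt2b5 was at 857, 979 and 789 CPM in RD and 571, 1180 and 841 CPM in HCD livers. Its diets overlapped, and its log2 fold change of -0.02 (SE 0.26, edgeR adjusted p = 0.973) was 0.21 without HCD replicate 1.

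Ugt2b38 (ENSMUSG00000061906, chr5:87409942-87424203, minus strand, GRCm38) fell with HCD. It was at 53.9, 50.5 and 35.8 CPM in RD and 7.28, 21 and 9.89 CPM in HCD livers. Every HCD liver was below every RD liver, and HCD replicate 1 was the lowest. The level fell 3.69-fold, a log2 fold change of -1.88 (SE 0.37, edgeR adjusted p = 0.0354), and -1.59 (adjusted p = 0.049) without HCD replicate 1. Without any one RD liver the adjusted p was 0.0598 to 0.136, and without HCD replicate 3 it was 0.115. Ugt2b38 and the abundant Ugt2b5 had reading frames 97.0% identical, and 24.2% of the 100-base windows of Ugt2b38 occurred in another gene, so the split of reads between them is uncertain.

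The gene most like this pair, Ugt2b37, had a lower level. It was at 7.69, 11.7 and 2.47 CPM in RD and 1.97, 4.55 and 1.22 CPM in HCD livers, and the diets overlapped. Its log2 fold change was -1.49 (SE 0.63, edgeR adjusted p = 0.223), and -1.31 without HCD replicate 1. Ugt2b1 was lowest in HCD replicate 1, at 205 CPM against 527 to 862 CPM elsewhere, and its log2 fold change of -0.54 was -0.16 without that liver. Ugt2b36, Ugt2b35 and Ugt2b34 had log2 fold changes of 0.42, 0.21 and 0.01, and of 0.56, 0.40 and 0.06 without HCD replicate 1. Whether Ugt2b38 differed from Ugt2b5 in its response was not tested.

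Upstream of their start sites, Ugt2b38, Ugt2b37, Ugt2b5 and Ugt2b36 carried the same nuclear receptor half-site letters. They are shown because Ugt2b38 was called and the others are its relatives of the same cluster that share these letters close to the start. The last 80 bases before the RefSeq start site (GRCm38.p6, minus strand) are shown, with the letters AGGTCA in capitals, at chr5:87424204-87424283, chr5:87254789-87254868, chr5:87140341-87140420 and chr5:87092556-87092635.
Ugt2b38: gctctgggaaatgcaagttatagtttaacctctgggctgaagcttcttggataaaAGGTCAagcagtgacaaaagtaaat
Ugt2b37: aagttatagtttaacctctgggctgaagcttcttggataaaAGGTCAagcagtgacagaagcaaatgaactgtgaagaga
Ugt2b5: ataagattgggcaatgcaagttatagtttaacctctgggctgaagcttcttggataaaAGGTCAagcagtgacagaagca
Ugt2b36: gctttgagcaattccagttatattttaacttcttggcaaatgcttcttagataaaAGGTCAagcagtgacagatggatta
The capitals began 25, 39, 22 and 25 bases before the start site. Over the whole 250-base windows, Ugt2b38 was 84.8% identical to Ugt2b37 and 80% identical to Ugt2b5. AGGTCA, searched on both strands, was in 9 of 23 measured members with a RefSeq window (39.1%) and in 14% of all 32851 windows. Among the 9 were Ugt2b35, Ugt2b36, Ugt2b37, Ugt2b38 and Ugt2b5, relatives of 1 cluster, so the 9 are not independent cases. A match is a description of letters, not a binding site.

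Ugt2a3, the one Ugt2a gene, and the Ugt3a genes, whose enzymes use other sugars than glucuronic acid, did not pass the test. Ugt2a3 was at 217, 191 and 262 CPM in RD and 229, 264 and 324 CPM in HCD livers. The diets overlapped, with a log2 fold change of 0.28 (SE 0.18, edgeR adjusted p = 0.415) and of 0.39 without HCD replicate 1. Ugt3a2 was at 376, 358 and 375 CPM in RD and 375, 361 and 326 CPM in HCD livers. These values spread little, and the log2 fold change was -0.06 (SE 0.14, edgeR adjusted p = 0.832), or -0.11 without HCD replicate 1. Ugt3a1 had a log2 fold change of -0.14, and -0.16 without that liver.

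Sult1c2 (ENSMUSG00000023122, chr17:53829637-53846339, minus strand, GRCm38), a member of the phenol sulfotransferase family, rose with HCD from a low level. It was at 0.865, 0.767 and 1.91 CPM in RD and 13.1, 4.83 and 5.35 CPM in HCD livers, from 11 to 44 and 66 to 259 counts. Every HCD liver was above every RD liver, and HCD replicate 1 was the highest. The level rose 6.45-fold, a log2 fold change of 2.69 (SE 0.53, edgeR adjusted p = 0.0367). Without HCD replicate 1 the log2 fold change was 2.08 and the adjusted p was 0.0738. The adjusted p was 0.0525 to 0.154 without any one RD liver and 0.0749 without HCD replicate 3, so the call was kept only when HCD replicate 2 was the liver left out. No other gene shared 100-base windows with Sult1c2.

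**Figure D3:**
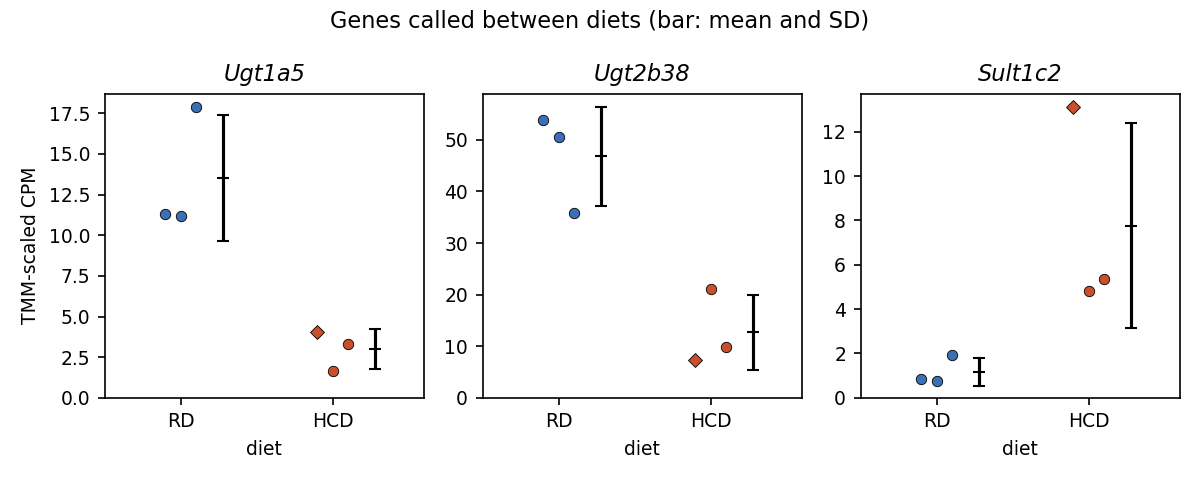
TMM-scaled CPM of Ugt1a5, Ugt2b38 and Sult1c2 in each RD (blue) and HCD (red) liver, with HCD replicate 1 as a diamond and the mean and SD of 3 livers as bars. The diets do not overlap for any of these genes, and HCD replicate 1 is the highest HCD liver for Ugt1a5 and Sult1c2 and the lowest for Ugt2b38.

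The other Sult1 genes did not pass the test. Sult1a1, which sulfates phenols, was the most abundant with a mean of 249 FPKM. It was at 163, 123 and 258 CPM in RD and 443, 111 and 419 CPM in HCD livers. HCD replicates 1 and 3 were above and HCD replicate 2 below every RD liver, and the log2 fold change was 0.84 (SE 0.48, edgeR adjusted p = 0.358), or 0.55 without HCD replicate 1. Sult1d1 had a log2 fold change of 0.67, and 0.36 without HCD replicate 1. Sult1b1, which sulfates thyroid hormones, had one of -0.10, and -0.08 without it. Sult1e1 had 12, 0 and 3 counts in RD and 46, 4 and 5 counts in HCD livers, the most in HCD replicate 1.

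The Sult2a genes, clustered on chromosome 7, encode enzymes that sulfate hydroxysteroids and bile acids, and their RNA was split between 1 liver and the other 5. In HCD replicate 1, Sult2a1 reached 15684 counts, while HCD replicate 2 held 3 and the remaining 4 livers held 0. Sult2a2 followed the same order with 16568, 3 and 0 counts. For Sult2a3 and Sult2a5, that liver gave 1612 and 1115 counts and every other liver gave 0. These 4 genes thus followed the liver with Xist and without Y-linked RNA, and the other HCD livers were at or near 0 as the RD livers were. They made up 81.6% of the summed Sult FPKM in HCD replicate 1 and at most 0.161% in any other liver. Diet and sex cannot be told apart in a pattern carried by 1 liver. Sult2a2 and Sult2a1 transcripts were 98.5% identical where they aligned, and the split of reads between them is uncertain.

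**Figure D4:**
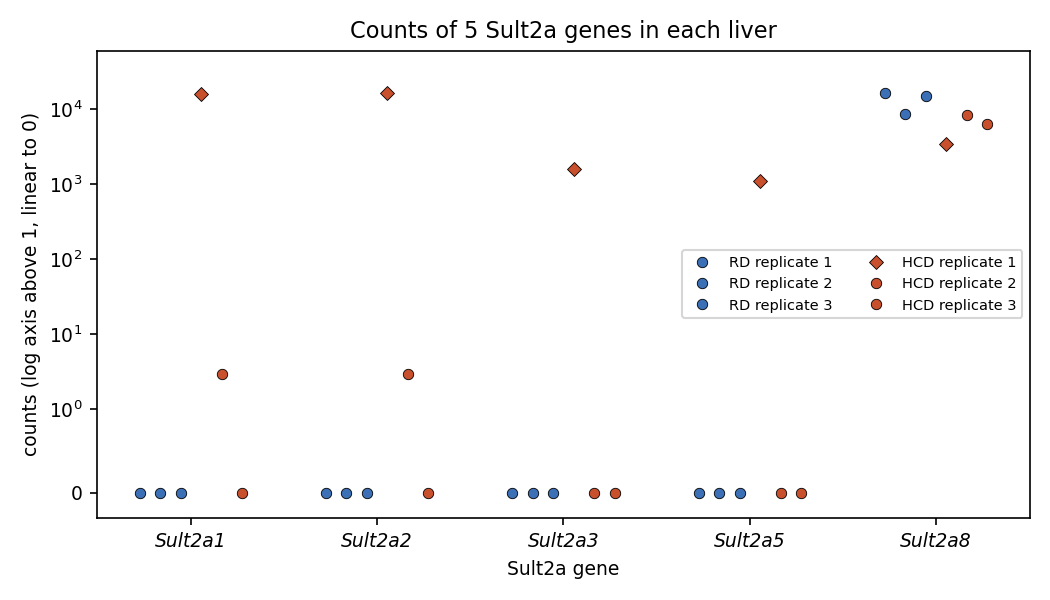
Counts (log axis above 1, linear to 0) of Sult2a1, Sult2a2, Sult2a3, Sult2a5 and Sult2a8 in each RD (blue) and HCD (red) liver, with HCD replicate 1 as a diamond. The first 4 genes are at 0 to 3 counts in 5 livers and at 1115 to 16568 counts in HCD replicate 1, where Sult2a8 is lowest.

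Sult2a8, which sulfates bile acids in mouse liver, had the opposite pattern. It was at 801, 593 and 646 CPM in RD and 171, 571 and 516 CPM in HCD livers. Every HCD liver was below every RD liver, and HCD replicate 1 was far below the rest. The log2 fold change of -0.70 (SE 0.39, edgeR adjusted p = 0.346) was -0.32 (adjusted p = 0.341) without that liver. Sult2a7 had a log2 fold change of 1.64 at 2 to 62 counts a liver, and 1.74 without HCD replicate 1. Sult2a2 had the highest mean of the subfamily, 284 FPKM, from HCD replicate 1 almost alone, and Sult2a8 followed with 246 FPKM.

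The windows upstream of Sult2a3 and Sult2a5 are shown because these were the measured genes with RNA in HCD replicate 1 alone. They are the 250 bases before the RefSeq start site (GRCm38.p6) at chr7:14123049-14123298, minus strand, and chr7:13623717-13623966, plus strand, with the HNF1 half-site letters GTTAAT on either strand in capitals.
Sult2a3: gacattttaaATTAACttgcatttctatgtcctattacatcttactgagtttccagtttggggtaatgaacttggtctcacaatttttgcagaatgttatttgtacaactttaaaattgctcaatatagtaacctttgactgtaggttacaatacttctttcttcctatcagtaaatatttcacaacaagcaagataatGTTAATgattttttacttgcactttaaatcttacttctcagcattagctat
Sult2a5: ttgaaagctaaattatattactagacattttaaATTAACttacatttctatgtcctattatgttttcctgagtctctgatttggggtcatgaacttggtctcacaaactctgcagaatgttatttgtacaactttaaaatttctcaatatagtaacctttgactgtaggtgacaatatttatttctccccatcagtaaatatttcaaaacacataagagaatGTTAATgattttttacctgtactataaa
Both windows held the letters at 2 places, 240 and 51 bases before the start of Sult2a3 and 217 and 28 bases before that of Sult2a5, and they were 73.3% identical. Of the genes under the count minimum whose RNA also came from HCD replicate 1 alone, Sult2a4 held the letters once, 107 bases before its start, Sult3a2 once and Sult3a1 not at all. The Sult2a4 window was 47.1% identical to that of Sult2a5 and 57.8% to that of Sult2a3. GTTAAT was in 9 of 23 measured members with a window (39.1%), among them Ugt1a1, Ugt2a3 and Sult1a1, and in 6.4% of all windows. Neither motif overlapped another of those searched. The STAT palindrome TTCNNNGAA was in 1 of the 23 windows, the AHR core TTGCGTG in 1 and the antioxidant response core TGACNNNGC in 0, against 7.0%, 0.9% and 10.2% of all windows. The windows of Ugt1a5 and Sult1c2 held none of these letters. The RefSeq start lay 381 bases from the M21 start for Sult1c2, 2941 bases from it for Ugt3a1, a gene counted with GTTAAT, and 4589 bases from it for Sult3a2. The windows of Sult1c2, Ugt3a1 and Sult3a2 thus fell inside their M21 genes.

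The remaining Sult subfamilies were low. Sult5a1 was at 12.9, 8.09 and 14 CPM in RD and 3.39, 7.86 and 9.24 CPM in HCD livers. The diets overlapped with HCD replicate 1 lowest, and the log2 fold change was -0.79 (SE 0.38, edgeR adjusted p = 0.272), or -0.46 without that liver. All 32 counts of Sult3a1 came from HCD replicate 1.

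Summed by subfamily, levels in the 2 diets overlapped for Ugt1a, Ugt2a, Ugt2b, Ugt3a, Sult1, Sult2 and Sult5. The Ugt2b sum was 1941, 1857 and 1811 FPKM in RD and 1319, 2457 and 1861 FPKM in HCD livers, so HCD replicates 1 and 2 lay on opposite sides of the RD livers. The Sult2 sum was 355.9, 260.5 and 294.3 FPKM in RD and 3160, 252.7 and 241.3 FPKM in HCD livers, and HCD replicates 2 and 3 were below every RD liver. The same held for Ugt1a, at 112.2, 112.0 and 117.3 FPKM in RD and 153.8, 100.5 and 100.4 FPKM in HCD livers, and for Ugt3a, at 207.9, 196.4 and 205.2 FPKM in RD and 210.3, 195.9 and 182.4 FPKM in HCD livers.

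**Figure D5:**
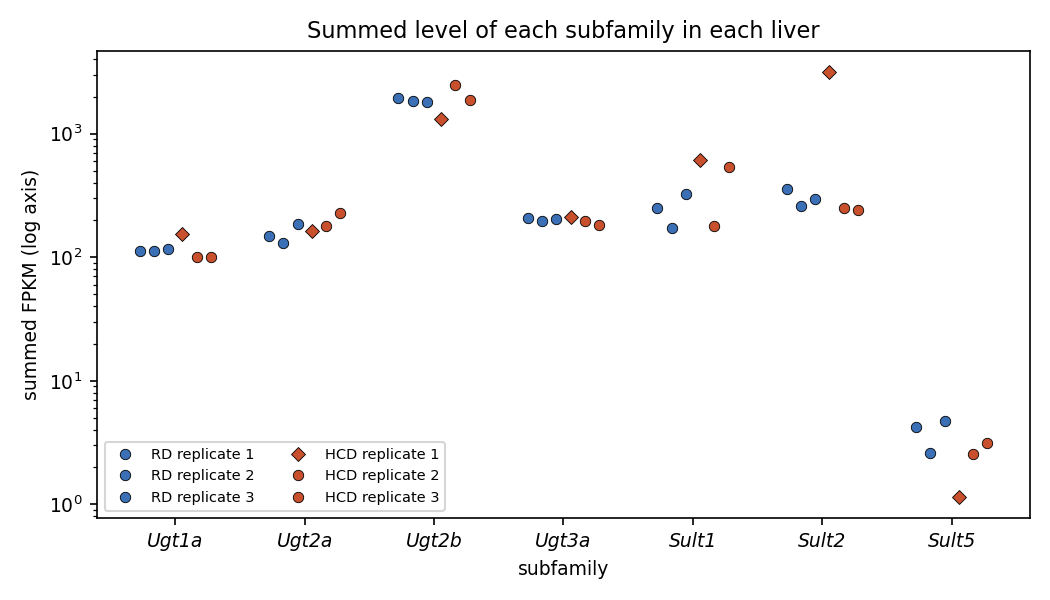
Summed FPKM (log axis) of the genes of each subfamily in each RD (blue) and HCD (red) liver, with HCD replicate 1 as a diamond. HCD replicate 1 is highest for Sult2, at 3160 FPKM, and lowest for Ugt2b, at 1319 FPKM.

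Genes that supply the donors of these reactions did not pass the test. None of 6 genes of UDP-glucuronate supply and glucuronide hydrolysis was called by edgeR, with a median log2 fold change of 0.20 (0.34 without HCD replicate 1), 1 gene higher at an unadjusted p under 0.05 and 1 called higher by DESeq2. None of 8 genes of PAPS supply and sulfate handling was called, with a median of -0.09 (-0.11 without that liver), 1 gene lower at an unadjusted p under 0.05 and 0 by DESeq2. None of 5 pumps that export conjugates was called, with a median of 0.54 (0.51 without it), 1 gene higher at an unadjusted p under 0.05 and 1 called higher by DESeq2. The shares of all genes tested past the same unadjusted threshold were 11.1% in the higher and 9.81% in the lower direction, and DESeq2 called 7.2% in either direction.

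Among 16 tested receptors and factors known to act on conjugation genes, 1 rose and 1 fell, where 1.95% and 1.32% of all genes were called. At an unadjusted p under 0.05, 3 were higher and 4 lower, against 11.1% and 9.81% of all genes tested. DESeq2 called 1 in each direction, against 7.2% of all genes in either direction. The median log2 fold change of this list was 0.03, and -0.11 without HCD replicate 1. Nr0b2, the small heterodimer partner induced by the bile acid receptor, rose with a log2 fold change of 1.34 (SE 0.25, edgeR adjusted p = 0.0303), and 1.34 (adjusted p = 0.0502) without HCD replicate 1. Its adjusted p was 0.0369 without HCD replicate 2 and up to 0.112 without any other single liver. Rxra, the common partner of the nuclear receptors, fell with a log2 fold change of -0.68 (SE 0.14, edgeR adjusted p = 0.0449), and -0.63 (adjusted p = 0.0673) without HCD replicate 1. Its adjusted p was 0.0673 to 0.193 with any one liver left out. Without HCD replicate 1, 1 gene of this list was called, against 2.53% of all genes in either direction. This was Ahr, the aryl hydrocarbon receptor, whose log2 fold change of -0.50 (SE 0.30, edgeR adjusted p = 0.386) became -1.0 (adjusted p = 0.0241). Among 14 classic target genes of CAR, PXR, AHR and NRF2 outside conjugation, 1 rose in the edgeR test, against 1.95% of all genes. At an unadjusted p under 0.05, 6 were higher and 1 lower, against 11.1% and 9.81% of all genes tested. DESeq2 called 5 higher, against 7.2% of all genes in either direction. Log2 fold changes in this list ran from -1.44 to 3.60, with a median of 0.39, and 0.49 without HCD replicate 1. The gene called by edgeR, Cyp3a11, a drug-oxidizing P450, rose with a log2 fold change of 1.06 (SE 0.20, edgeR adjusted p = 0.0329), and 1.11 (adjusted p = 0.0344) without HCD replicate 1. Its call was also kept without RD replicate 3 (adjusted p = 0.0434) and was lost without RD replicate 1, RD replicate 2, HCD replicate 2 or HCD replicate 3, with an adjusted p of up to 0.153.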

How the data were processed

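Liver RNA was extracted with an RNeasy kit, and Novogene did the sequencing. The authors deposited raw counts per gene and FPKM values per liver. Per the labels, STAR, HTSeq, DESeq2, edgeR and GRCm39 were named with no role. Gene lengths implied by the deposited FPKM equalled GENCODE M21 (GRCm38) exon lengths within 0.1% for 95.5% to 95.9% of genes, and coordinates are those of M21. The FPKM table also held the authors' log2 fold changes and p-values, which were not used.

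Counts were tested with edgeR 4.0.16 (R 4.3.3) by the quasi-likelihood test of HCD against RD, with filterByExpr, TMM factors and Benjamini-Hochberg adjustment over 13105 genes. A gene was called where its adjusted p was below 0.05, whatever its fold change. The script was tested on simulated data. CPM are TMM-scaled. The floor of 3 counts was 0.13 to 0.243 CPM, which covers counting error only. DESeq2 1.42.0 and limma 3.58.1 were alternatives, with other scalings, filters, a length correction and leaving out each liver. Transcripts were aligned with minimap2 2.31, and 29 of 35 members matched a RefSeq upstream window. The study describes 3 mice per diet, and p-values measure the spread between these livers.

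Full values are given for members called, for members called by DESeq2 or not overlapping with a log2 fold change of at least 1 in size, and for the most abundant of each subfamily. Other members are given by their log2 fold change, some with liver values added after they were seen, and genes of other lists are named where edgeR called them. The family whose members are described, and the lists, were chosen with earlier results of these data known, and the members then followed from gene symbols.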

Additional observations from a re-analysis of the deposited data

Results flagged for a closer look

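9 genes of these families had counts in HCD replicate 1 and none in any RD liver, and were not part of the test between diets. In that liver Sult2a1 had 15684 counts, Sult2a2 16568, Sult2a3 1612, Sult2a5 1115, Sult3a1 32, Sult2a4 5 and Sult3a2 2, the last of these under the floor of 3 counts. The pseudogenes Sult2a-ps1 and Sult2a-ps2, outside the naming rule, had 22 and 11 counts there and 0 in the other 5 livers. The same liver held 5032 counts of Xist and 0 counts of the 4 Y-linked genes examined.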

How the results depend on the processing

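The counts of called members depended on single livers. The members called higher, 1 in all, ranged from 0 to 1 when 1 liver was left out, and the members called lower, 2 in all, from 0 to 2. No member was called without RD replicate 1, RD replicate 2, RD replicate 3 or HCD replicate 3. With no filter on low counts, 5 members were called higher, because Sult2a1, Sult2a2, Sult2a3 and Sult2a5 then entered the test on the counts of 1 liver. With the length-trend correction 0 were called higher (Sult1c2, adjusted p = 0.0504). With the replicate block 0 were called higher and 1 lower, Ugt1a5 with an adjusted p of 0.0489. The labels do not say whether the numbers pair the livers. Deviations of same-numbered livers from their diet means correlated at -0.0761, 0.0879 and -0.0413 over the genes tested. Livers of different numbers correlated at -0.107 to 0.133, and with 3 livers a diet such values cannot decide on pairing. At an unadjusted p of 0.05 or less, 2 members were higher and 4 lower, against 11.1% and 9.81% of all genes tested. The median of the Sult genes, 0.67, was 1.84 with DESeq2, 1.82 with no filter and 1.78 with a mean of at least 50 counts, settings in which the same 4 Sult2a genes were included. DESeq2 and the fit with no filter also included Sult1e1, and the mean of at least 50 counts left out Sult2a7. The 28 measured members became 30 and 26 with minimums of 30 and 120 counts, 26 with a mean FPKM over 1 and 21 with 10 or more counts in every liver. The Ugt median, -0.10, ran from -0.18 to -0.05.

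Signs turned for 4 uncalled genes, in 14 cases, all with adjusted p over 0.5. Ugt2b34 was -0.0063 with DESeq2 and with no filter, -0.06 with library sizes alone, -0.091 without RD replicate 3 and -0.11 without HCD replicate 2. Ugt2b35 was -0.15 without HCD replicate 2. Ugt2b5 was 0.011 with upper-quartile factors, 0.062 without RD replicate 2 and 0.21 without HCD replicate 1. Sult1b1 was 0.00045 and 0.012 in the limma-trend fits with pseudocounts of 1 and 0.1, 0.012 without RD replicate 1, 0.16 without RD replicate 3 and 0.06 without HCD replicate 2. Over all single livers left out, Ugt2b35 reached 0.40, Ugt2b5 went down to -0.32 and Sult1b1 to -0.43. The cause was not tested. With 3 livers a diet, an exact permutation test cannot go below 0.1.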
